A study of Mus musculus with 16 samples.

Results

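The genes described here build the machinery that copies DNA: 45 mouse genes of origin licensing, origin firing and the replication fork, matched by symbol to 45 of the 38293 Ensembl genes counted in each RNA-Seq library. Each symbol matched 1 gene, and all 45 passed the filter on low counts. Expression was compared between 2 lymphoid lines. P6D4 is labelled as SCID.adh, a murine lymphoma of the thymus, and as DN3, an early thymocyte stage, and 70Z/3 is a lymphoblast line labelled pre-B, an early B cell stage. Both lines are cultured tumour lines, no treatment is named for either, and lineage and line of origin cannot be told apart. Each line has 3 RNA-Seq libraries. Miz1, a zinc finger transcription factor encoded by Zbtb17, was mapped by ChIP-Seq once per line.

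Before S phase, the origin recognition complex, Cdc6 and Cdt1 load the ring-shaped MCM2-7 helicase onto DNA, and geminin blocks Cdt1 afterwards so that an origin is used once per cycle. The kinase Cdc7 with its activator Dbf4, together with cyclin-dependent kinases, then lets Cdc45 and the GINS complex join MCM2-7 to make the active helicase. Polymerase alpha-primase starts each strand, the RFC complex loads the PCNA clamp, polymerases delta and epsilon extend, RPA covers single strands, and Fen1 and Lig1 finish the lagging strand. Many of these genes are activated by E2F factors when a cell leaves G1. Early B and T cell precursors that carry a new antigen receptor chain divide fast, and both cell lines grow continuously.

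The libraries held 54815145, 52076755 and 48255176 counts in genes for P6D4, against 47568819, 48885150 and 45481949 for 70Z/3. Markers fitted the line labels: all 10 thymocyte markers tested were higher in P6D4 and 8 of 9 pre-B markers were lower, the exception being Rag1, which was higher in P6D4. CPM is the count scaled to library size and TMM factor, except in sums over marker lists, which were scaled to library size alone. Summed CPM of 7 myeloid markers was 31.3 to 38.1 in P6D4 and 23.0 to 24.7 in 70Z/3. Itgam made up most of the P6D4 sum, at 29.1 CPM in P6D4 against 7.07 CPM in 70Z/3. Lyz2, at 1.96 CPM in P6D4 against 12.3 CPM in 70Z/3, and Csf1r, at 0.0123 CPM in P6D4 against 2.84 CPM in 70Z/3, were lower. For 5 erythroid markers the sum was 0.657 to 0.845 in P6D4 and 0.989 to 1.08 in 70Z/3, and for 5 stromal markers 3.82 to 4.54 in P6D4 and 0.491 to 0.925 in 70Z/3. All stromal counts in P6D4 were of Pdgfrb, at 4.05 CPM against 0.623 CPM in 70Z/3, while Col1a1 and Col1a2 had counts in 70Z/3 alone. Of the erythroid markers 1 had no count in P6D4 and 2 had none in 70Z/3, and of the stromal markers 4 had none in P6D4 and 2 had none in 70Z/3. Their part in the results was not tested. No label says that a line's 3 libraries are from separate cultures, so the p-values reflect variation among these libraries alone, and that variation may be technical.

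The replication genes differed between the lines by small amounts and in both directions. Of the 45 members, 18 were higher in P6D4, 16 were lower and 11 were not called (edgeR quasi-likelihood test, adjusted p below 0.05 over all 13750 genes tested). Over all genes tested, 43.3% were higher and 43.2% lower by the same rule, and 1859 of the 13750 were not called. Of the 6388 genes tested whose average level lay in the members' range, 2731 were higher, 2906 lower and 751 not called. The share not called was therefore larger among the members than in either background. The median absolute log2 fold change was 0.24 over the members, 0.67 over all genes tested and 0.43 over the 6388 genes tested whose average level lay in the members' range. The signed median was -0.01 over the members and 0.01 over all genes. No member was called beyond 2-fold: 0 passed edgeR glmTreat against that size, 0 had an unadjusted p below 0.05 in it, and DESeq2 with the same limit called 0. Over all genes, 16.6% were higher and 18.6% lower beyond 2-fold. Summed over the members, the level was 9036, 8777 and 8835 CPM in P6D4, against 8813, 9167 and 9000 CPM in 70Z/3, so the lines overlapped. In bulk RNA, a different share of cells in S phase and a different amount of RNA per cell cannot be told apart.

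**Figure D1:**
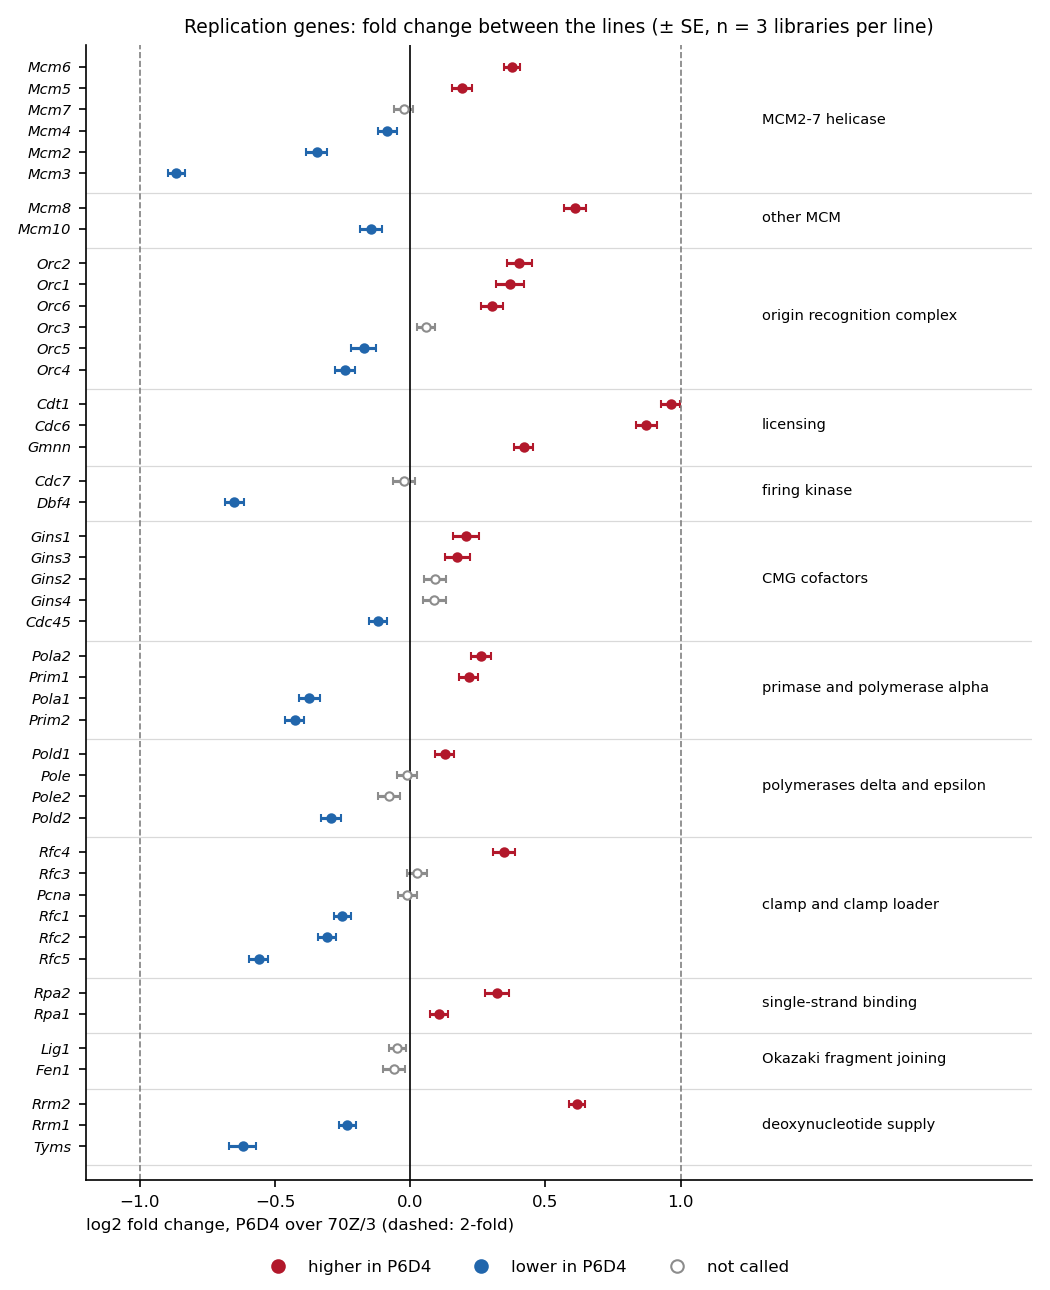
Log2 fold change of each of the 45 replication genes, P6D4 over 70Z/3, grouped by role, with 1 SE and n = 3 libraries per line; filled points were called (red higher, blue lower in P6D4), open points were not, and dashed lines mark 2-fold. All points lie inside the dashed lines, from -0.87 for Mcm3 to 0.96 for Cdt1.

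Because the libraries of a line were close, small differences could be called. The coefficient of variation between libraries was 0.175 to 7.20% over the members in P6D4 and 0.921 to 6.68% in 70Z/3. In 21 members all P6D4 libraries lay above all 70Z/3 libraries and in 18 all lay below, while 6 overlapped. The groups were separate in 87.4% of all genes tested.

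Some promoters of these genes hold sequence words of E2F factors. In the RefSeq table (GRCm38.p6), 46 promoters of 37 members run from 250 bases before the start site to 50 after it. The words searched on both strands were TTTGGCGC, TTTCCCGC, TTTCGCGC and TTTGCCGC. They occur in 15 of the 46 member promoters (32.6%), against 2.3% of all 32851 promoters of that length and 2.9% of the 21263 of protein-coding genes. A match describes the letters and is not a bound site. By direction, 8 of the 16 members in the table that were higher in P6D4 have a word, 2 of the 13 that were lower and 5 of the 8 that were not called. Of the other words, CCAAT is in 54.3% of member promoters against 37.4% of all, CACGTG (the E-box of Myc and its partners) in 17.4% against 7.2%, and TTTGAA, a cell cycle element of late genes, in 17.4% against 17.9%.

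The promoters of Mcm6 and Mcm3 are shown because these subunits of 1 ring moved in opposite directions, that of Cdt1 as the most raised member, and that of Gins3 because Miz1 was found there. Capitals mark the E2F words, and each sequence reads 5′ to 3′ on the strand of its gene, from 250 bases before the start site (GRCm38.p6).
Mcm6, chr1:128359656-128359955, minus strand: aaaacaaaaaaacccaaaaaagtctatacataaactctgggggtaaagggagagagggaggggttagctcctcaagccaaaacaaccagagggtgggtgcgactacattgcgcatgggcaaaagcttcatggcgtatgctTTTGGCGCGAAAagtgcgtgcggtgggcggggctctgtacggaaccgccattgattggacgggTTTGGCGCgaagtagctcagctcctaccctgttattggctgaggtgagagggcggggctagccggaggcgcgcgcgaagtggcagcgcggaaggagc
Mcm3, chr1:20820263-20820562, minus strand: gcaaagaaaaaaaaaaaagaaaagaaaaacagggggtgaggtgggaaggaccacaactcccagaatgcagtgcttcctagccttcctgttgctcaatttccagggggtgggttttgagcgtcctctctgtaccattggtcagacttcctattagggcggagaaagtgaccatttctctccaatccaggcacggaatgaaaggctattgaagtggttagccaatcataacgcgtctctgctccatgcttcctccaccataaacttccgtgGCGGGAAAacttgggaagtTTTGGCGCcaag
Cdt1, chr8:122567765-122568064, plus strand: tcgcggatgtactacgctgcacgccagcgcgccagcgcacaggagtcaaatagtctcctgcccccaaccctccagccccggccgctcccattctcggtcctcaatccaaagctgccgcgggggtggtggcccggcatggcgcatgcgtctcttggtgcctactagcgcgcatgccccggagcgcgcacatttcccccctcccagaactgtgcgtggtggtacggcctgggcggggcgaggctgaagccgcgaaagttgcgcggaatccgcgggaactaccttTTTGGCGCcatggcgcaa
Gins3, chr8:95633309-95633608, plus strand: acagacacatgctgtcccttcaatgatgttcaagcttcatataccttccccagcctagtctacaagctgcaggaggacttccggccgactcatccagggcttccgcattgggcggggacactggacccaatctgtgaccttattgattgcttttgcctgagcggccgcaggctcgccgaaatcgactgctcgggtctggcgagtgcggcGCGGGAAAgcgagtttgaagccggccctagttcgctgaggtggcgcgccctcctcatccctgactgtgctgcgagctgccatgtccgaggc

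Counted from the start site, Mcm6 has 3 E2F words upstream, with first bases at -110, -106 and -47, and those at -110 and -106 overlap. Mcm3 has 2 words downstream, at 20 and 39. Both Mcm6, which was higher in P6D4, and Mcm3, which was lower, carry the words. A link between the words and the direction was not tested. Cdt1 has a word at 33 and Gins3 a word at -41.

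Licensing factors showed the largest rise. Cdt1, which brings MCM2-7 to the origin, was at 181, 174 and 175 CPM in the P6D4 libraries and 88.1, 92.4 and 91.2 CPM in those of 70Z/3. The lines did not overlap, and the log2 fold change was 0.96 ± 0.03 (SE; adjusted p in edgeR = 7.09e-12). Cdc6, the ATPase that works with Cdt1, was at 130.1, 123 and 121 CPM in P6D4, against 66.0, 69.4 and 68.7 CPM in 70Z/3, a log2 fold change of 0.87 ± 0.04 (SE; adjusted p in edgeR = 7.31e-11). Gmnn, which encodes the Cdt1 inhibitor geminin, was also higher, at 114, 115 and 117 CPM in P6D4, against 84.3, 88.4 and 85.3 CPM in 70Z/3. Its log2 fold change was 0.42 ± 0.03 (SE; adjusted p in edgeR = 6e-08). All 3 licensing members were therefore called higher in P6D4. Set against its inhibitor, Cdt1 had 1.53 ± 0.05 counts per Gmnn count in P6D4 and 1.05 ± 0.01 in 70Z/3 (SD, n = 3). Counts of the 2 genes are not corrected for transcript length, so only the change of this ratio between lines can be read.

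**Figure D2:**
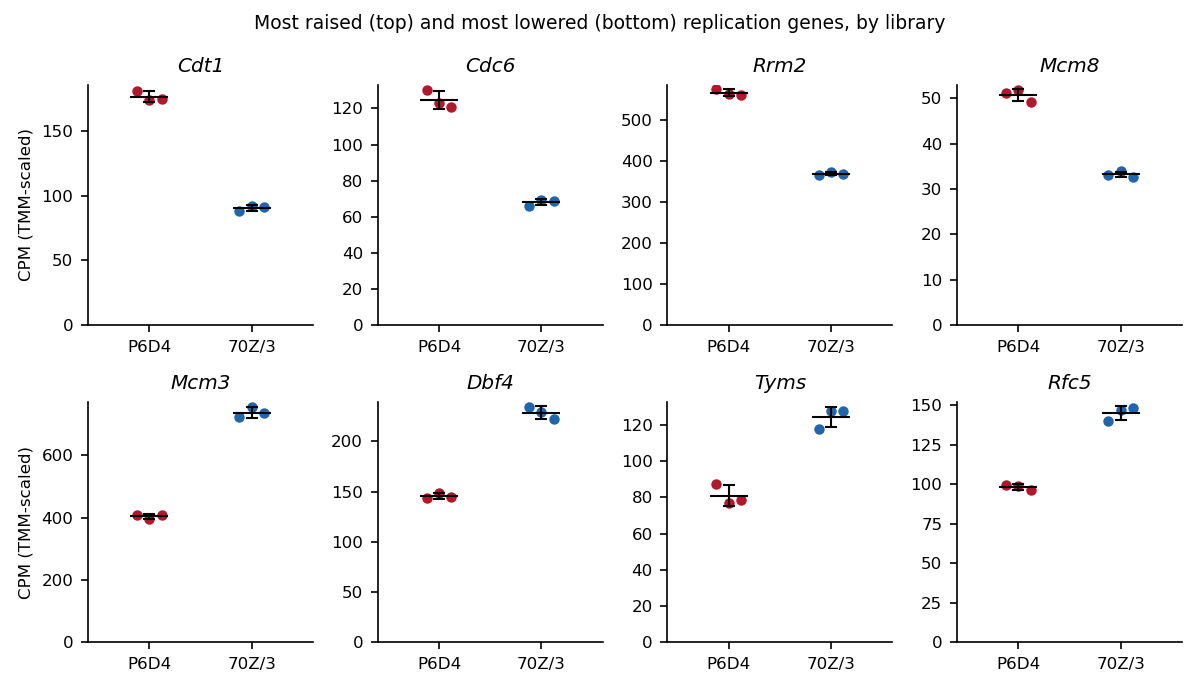
TMM-scaled CPM (linear axis from 0) of the 4 most raised members in the top row and the 4 most lowered in the bottom row; each point is a library, and bars give the mean and SD (n = 3), with P6D4 in red at the left and 70Z/3 in blue at the right. In each panel the 3 points of one line are clear of those of the other, as for Cdt1 at 174 to 181 CPM in P6D4, against 88.1 to 92.4 CPM in 70Z/3.

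The subunits of the MCM2-7 helicase did not move together. This ring is built from 1 copy of each of 6 related proteins, all with an ATPase domain. Mcm3 was at 409, 395 and 408 CPM in P6D4, against 720.4, 753 and 735 CPM in 70Z/3, the largest fall among the members. Its log2 fold change was -0.87 ± 0.03 (SE; adjusted p in edgeR = 1.11e-11). Mcm2 was also lower, at 473, 446 and 454 CPM in P6D4, against 549.8, 599 and 596 CPM in 70Z/3 (log2 fold change -0.35 ± 0.04 with its SE; adjusted p in edgeR = 1.85e-06). Mcm6 went the other way, at 935, 926 and 930.3 CPM in P6D4 against 700.1, 732 and 718 CPM in 70Z/3. The groups were separate and the log2 fold change was 0.38 ± 0.03 (SE; adjusted p in edgeR = 5.84e-08). Mcm5 was higher by 0.19 ± 0.04 on the log2 scale. Mcm7, at 430.0, 404 and 413 CPM in P6D4, against 409, 429 and 431 CPM in 70Z/3, overlapped between the lines and was not called (adjusted p in edgeR = 0.52). Mcm4 was lower by a small margin, -0.08 ± 0.03 on the log2 scale (SE; adjusted p in edgeR = 0.0354). Its call was lost without P6D4 replicate 2, 70Z/3 replicate 2 or 70Z/3 replicate 3 (adjusted p in edgeR = 0.167, 0.136 and 0.0809). It was also lost with library size only and with a replicate block (adjusted p in edgeR = 0.175 and 0.0694). Over all alternatives, in edgeR and DESeq2, the adjusted p ran from 0.00621 to 0.175.

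Shares within a library do not depend on scaling between libraries. Mcm3 held 13.1 ± 0.125% of the counts of the 6 MCM2-7 genes in P6D4 and 22.4 ± 0.267% in 70Z/3 (SD, n = 3). Mcm6 held 30.2 ± 0.407% in P6D4 and 21.8 ± 0.221% in 70Z/3. Mcm4 held 11.7 ± 0.144% in P6D4 and 11.7 ± 0.056% in 70Z/3, with overlapping libraries, although its CPM was called lower. Mcm7, whose CPM overlapped, held 13.5 ± 0.186% in P6D4 and 12.9 ± 0.134% in 70Z/3, and its shares did not overlap. There were 2.28, 2.35 and 2.28 Mcm6 counts per Mcm3 count in the P6D4 libraries, against 0.972, 0.973 and 0.976 in those of 70Z/3. An exact two-sided permutation test over the 6 libraries gave p = 0.1 for this ratio, which is the smallest value that 3 against 3 libraries allow. The same p was found for each of the 7 ratios computed, which were chosen with the members' values known (adjusted p = 0.1 over the 7).

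**Figure D3:**
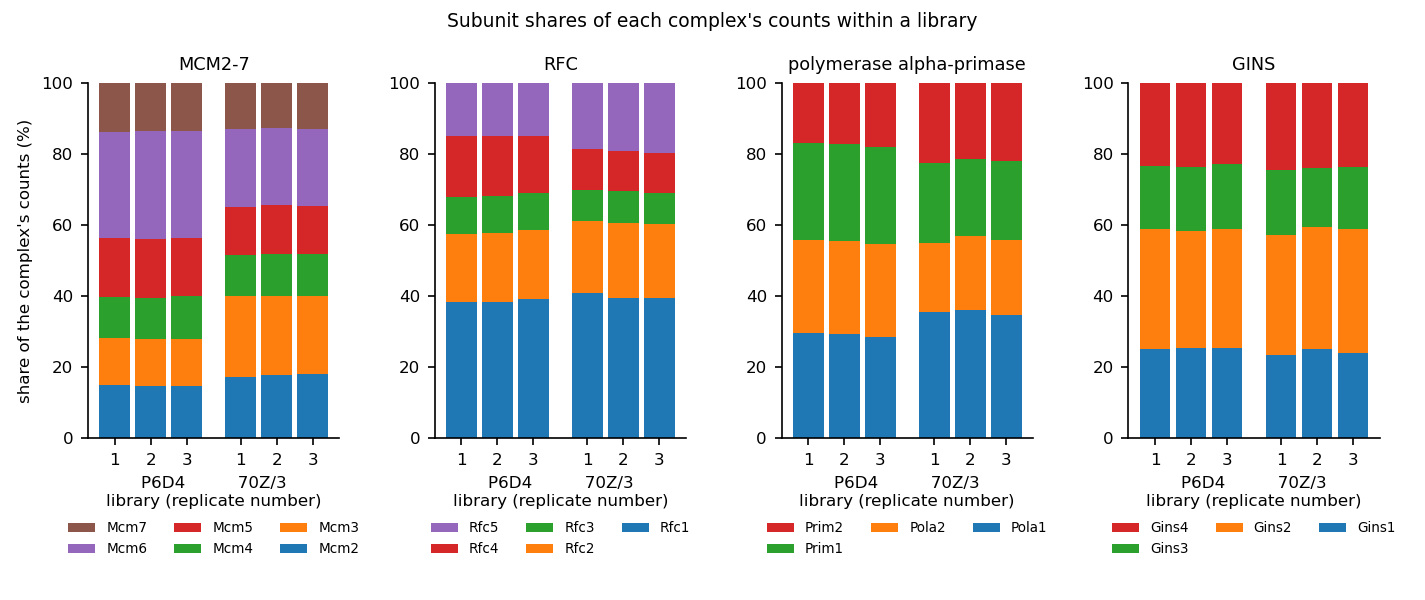
Share of each subunit in the summed counts of its complex (%, linear axis from 0) in every library, with the 3 P6D4 libraries at the left of each panel and the 3 of 70Z/3 at the right; panels give MCM2-7, RFC, polymerase alpha-primase and GINS. The Mcm3 band is 13.1% wide in P6D4 and 22.4% in 70Z/3, and the Rfc4 band 16.7% in P6D4 and 11.4% in 70Z/3.

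A neighbour of Mcm4 in the annotation is Prkdc, which encodes the DNA-dependent protein kinase: on chromosome 16 the bounds of the 2 genes are 44 bases apart. Prkdc, given here as the neighbour of Mcm4, was at 67.1 ± 1.41 CPM in P6D4, against 115 ± 5.47 CPM in 70Z/3 (SD, n = 3). Its log2 fold change was -0.77 ± 0.04 (SE; adjusted p in edgeR = 4.6e-10), against -0.08 for Mcm4.

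Of the other MCM proteins, Mcm8, a helicase subunit of meiotic and repair recombination, was higher in P6D4. It was at 51.2, 51.8 and 49.2 CPM in P6D4, against 33.2, 33.9 and 32.7 CPM in 70Z/3, a log2 fold change of 0.61 ± 0.04 (SE; adjusted p in edgeR = 7.19e-09). Mcm10, a fork factor that helps to activate the helicase and is not part of the ring, was lower, at a log2 fold change of -0.15 ± 0.04 (SE). Mcm9, which is not a member, was also lower, at 17.0 CPM in P6D4 against 24.5 CPM in 70Z/3 (log2 fold change -0.53 ± 0.05; adjusted p in edgeR = 2.44e-07).

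In the origin recognition complex 3 subunits were higher, 2 lower and 1 not called. Orc2 was at 94.1, 85.2 and 83.7 CPM in P6D4, against 65.8, 67.9 and 65.1 CPM in 70Z/3 (log2 fold change 0.40 ± 0.05 with its SE; adjusted p in edgeR = 1.84e-06). Orc1, the subunit whose ATPase drives helicase loading, was at 54.8, 51.9 and 55.3 CPM in P6D4, against 38.8, 42.4 and 44.3 CPM in 70Z/3. Its log2 fold change was 0.37 ± 0.05 (SE; adjusted p in edgeR = 1.23e-05), and Orc6 was higher by 0.30 ± 0.04. Orc4 and Orc5 were lower, with log2 fold changes of -0.24 ± 0.04 and -0.17 ± 0.05. Orc3 was at 107, 106 and 105 CPM in P6D4, against 104, 101 and 99.7 CPM in 70Z/3. Its groups were separate by a small gap, and it was not called (log2 fold change 0.06 ± 0.03; adjusted p in edgeR = 0.119).

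The kinase that fires origins split into a lower activator and an uncalled catalytic subunit. Dbf4 was at 144, 149 and 144 CPM in P6D4, against 235, 229 and 222 CPM in 70Z/3, a log2 fold change of -0.65 ± 0.03 (SE; adjusted p in edgeR = 4.03e-10). Cdc7 was at 127, 137 and 142 CPM in P6D4, against 139.8, 138 and 136 CPM in 70Z/3. The lines overlapped and Cdc7 was not called (log2 fold change -0.02 ± 0.04; adjusted p in edgeR = 0.578). Dbf4 had 1.08 ± 0.06 counts per Cdc7 count in P6D4 and 1.66 ± 0.02 in 70Z/3 (SD, n = 3).

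Among the proteins that complete the active helicase, differences were small. Gins1 and Gins3 were higher by 0.21 ± 0.05 and 0.17 ± 0.05 on the log2 scale, and Cdc45 was lower, at a log2 fold change of -0.12 ± 0.03. Gins2 was at 65.3, 62.3 and 63.0 CPM in P6D4, against 56.9, 60.6 and 61.6 CPM in 70Z/3. Gins4 was at 45.6, 44.8 and 42.5 CPM in P6D4, against 41.0, 42.2 and 41.7 CPM in 70Z/3. Both were separate between the lines and neither was called (adjusted p in edgeR = 0.0551 for Gins2 and 0.063 for Gins4). Within GINS, mean shares differed by at most 1.25 percentage points, the difference of Gins1. Gins2 held 33.4 ± 0.416% of GINS counts in P6D4 and 34.4 ± 0.515% in 70Z/3, and the shares of Gins3 and Gins4 overlapped between the lines.

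Polymerase alpha-primase, a complex of 4 subunits, was divided, with 2 subunits lower and 2 higher. The catalytic polymerase subunit Pola1 and the large primase subunit Prim2 were lower in P6D4. Pola1 was at 162, 155 and 148 CPM in P6D4, against 203, 207 and 193 CPM in 70Z/3 (log2 fold change -0.37 ± 0.04 with its SE; adjusted p in edgeR = 1.07e-06). Prim2 was at 93.2, 90.7 and 93.4 CPM in P6D4, against 128, 122 and 123 CPM in 70Z/3 (log2 fold change -0.43 ± 0.04 with its SE; adjusted p in edgeR = 6.05e-08). Their partners, the accessory subunit Pola2 and the catalytic primase subunit Prim1, were higher by 0.26 ± 0.04 and 0.22 ± 0.03. Prim1 had 1.57 ± 0.04 counts per Prim2 count in P6D4 and 1.01 ± 0.01 in 70Z/3 (SD, n = 3).

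Of the replicative polymerases, Pold1, the catalytic subunit of polymerase delta, was higher by 0.13 ± 0.04, and its partner Pold2 was lower, at a log2 fold change of -0.29 ± 0.04. The delta subunits Pold3 and Pold4, outside the 45 genes, were also lower, with log2 fold changes of -0.35 ± 0.03 and -2.05 ± 0.09 (SE). Neither member of polymerase epsilon, Pole or Pole2, was called. Pole was at 169, 158 and 160.1 CPM in P6D4, against 161, 167 and 163 CPM in 70Z/3 (adjusted p in edgeR = 0.751), with overlapping lines. Pole2 was at 44.5, 42.7 and 43.1 CPM in P6D4, against 45.3, 46.8 and 45.5 CPM in 70Z/3 (adjusted p in edgeR = 0.0783), and its lines did not overlap. Of the small epsilon subunits outside the 45 genes, Pole4 was lower, at a log2 fold change of -0.27 ± 0.04 (SE; adjusted p in edgeR = 6.03e-05), and Pole3 was not called (adjusted p in edgeR = 0.0755).

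The clamp was not called, while 4 of the 5 measured loader subunits were. Pcna was at 376, 357 and 371 CPM in P6D4, against 365, 383 and 364 CPM in 70Z/3, with overlapping lines and a log2 fold change of -0.01 ± 0.03 (SE; adjusted p in edgeR = 0.781). Reads can be shared with the processed copy Pcna-ps2, which took 2708 counts in all in P6D4 and 2502 in 70Z/3. These counts do not give the number of Pcna reads lost or misplaced, so the value of Pcna is uncertain to an unknown extent. Rfc5 was at 99.8, 98.7 and 96.6 CPM in P6D4, against 139.9, 147 and 148 CPM in 70Z/3 (log2 fold change -0.56 ± 0.04 with its SE; adjusted p in edgeR = 3.11e-09). Rfc2 was at 129, 128 and 126 CPM in P6D4, against 154, 164 and 156 CPM in 70Z/3, a log2 fold change of -0.31 ± 0.03 (SE; adjusted p in edgeR = 1.4e-06). Rfc1, the large subunit that is found only in this loader, was lower, at a log2 fold change of -0.25 ± 0.03. Rfc4 was higher by 0.35 ± 0.04, and Rfc3 was at 68.2, 68.0 and 68.0 CPM in P6D4, against 64.9, 69.3 and 66.4 CPM in 70Z/3, which overlapped and were not called (adjusted p in edgeR = 0.525). Rfc4 had 1.12 ± 0.04 counts per Rfc5 count in P6D4 and 0.598 ± 0.03 in 70Z/3 (SD, n = 3).

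Both RPA members were higher in P6D4, Rpa1 by 0.11 ± 0.03 and Rpa2 by 0.32 ± 0.04 on the log2 scale (SE). The smallest RPA subunit, Rpa3, which is not a member, was lower, at 57.6 CPM in P6D4 against 63.3 CPM in 70Z/3 (log2 fold change -0.14 ± 0.04; adjusted p in edgeR = 0.00549), so the subunits went both ways. Neither of the genes that finish Okazaki fragments was called. The flap nuclease gene Fen1 was at 143, 142 and 142 CPM in P6D4, against 140.1, 155 and 151 CPM in 70Z/3, overlapping and not called (adjusted p in edgeR = 0.164), although it was called without 70Z/3 replicate 1 (adjusted p in edgeR = 0.00981). The ligase gene Lig1 was at 245, 247 and 249 CPM in P6D4, against 253, 258 and 256 CPM in 70Z/3. Its groups were separate by a small gap and it was not called (adjusted p in edgeR = 0.159).

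Genes that supply deoxynucleotides diverged. Ribonucleotide reductase joins a large subunit, Rrm1, and a small subunit, Rrm2, whose level is tied to S phase. Rrm2 was at 575, 563 and 559 CPM in P6D4, against 365, 373 and 368 CPM in 70Z/3 (log2 fold change 0.62 ± 0.03 with its SE; adjusted p in edgeR = 2.33e-10), while Rrm1 was lower, at a log2 fold change of -0.23 ± 0.03. There were 1.12, 1.12 and 1.11 Rrm2 counts per Rrm1 count in the P6D4 libraries and 0.622, 0.612 and 0.623 in those of 70Z/3. Tyms, thymidylate synthase, was at 87.4, 76.6 and 78.3 CPM in P6D4, against 118, 127 and 128 CPM in 70Z/3, a log2 fold change of -0.62 ± 0.05 (SE; adjusted p in edgeR = 5.77e-08). P6D4 replicate 1 was the highest of its line for Tyms and still lay below every 70Z/3 library.

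The members also shared small shifts between libraries of one line. P6D4 replicate 1 was the highest library of its line in 33 of the 45 members, against 38.0% of all genes tested. 70Z/3 replicate 2 was the highest of its line in 28 members, against 31.2% of all genes, and 70Z/3 replicate 1 was the lowest in 29, against 39.9%. These shifts were small: the median deviation of a member from its line's mean log2 level was 0.02 in P6D4 replicate 1, 0.03 in 70Z/3 replicate 2 and -0.03 in 70Z/3 replicate 1. Members share each library, so these counts are a description.

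The members were also set beside all tested genes of their chromosome. Chromosome 5 carries 10 members, and 6 of them were lower in P6D4 and 0 higher (edgeR quasi-likelihood test): Dbf4, Tyms, Rfc5, Rfc2, Rfc1 and Orc5. The other 4, Cdc7, Pole, Mcm7 and Rfc3, were not called. At an unadjusted p below 0.05, and with DESeq2, 0 of the 10 were higher as well. The median log2 fold change of all 816 tested genes on chromosome 5 was -0.36, and that of the 10 members -0.21. Of all tested genes there, 24.4% were called higher and 62.6% lower. Chromosome 8 carries 6 members, of which 4 were higher, 0 lower and 2 not called, Cdt1 among the higher. Likewise, 0 were lower at an unadjusted p below 0.05 and with DESeq2. There the median of 676 tested genes was 0.06 and that of the members 0.18, with 46% of the genes called higher and 37.9% lower. Mcm3 and Prim2, both lower, lie on chromosome 1, where the median of all tested genes was -0.46 and 62.5% were called lower, but so do Mcm6 and Orc2, both higher. No member lies on chromosome 15, whose median was highest at 0.90. The part of these chromosome-wide levels in the members' differences was not tested.

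**Figure D4:**
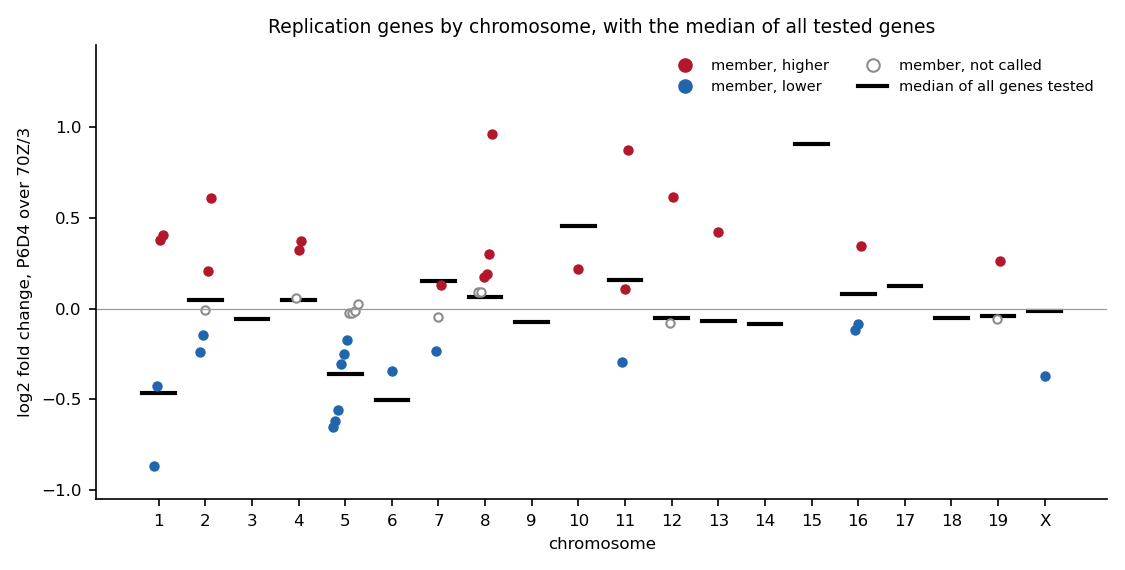
Log2 fold change of each member (P6D4 over 70Z/3) on its chromosome, with red points higher, blue points lower and open points not called; black bars give the median of all tested genes of that chromosome. The 10 members of chromosome 5 lie between -0.65 and 0.03 around a bar at -0.36, and no member lies on chromosome 15.

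Few genes had a Miz1 peak at the start site, among the members and among all genes. In each line's list, 1 of the 45 members had a summit within 1000 bases of its start site (2.22%, Clopper-Pearson 95% interval 0.06 to 11.77%, counting error only). Of 21887 protein-coding genes, 0.941% had one in the P6D4 list and 2.88% in the 70Z/3 list, and the members' interval holds both shares. For the 8 members and other genes without a start site in the table, either end of the gene was used. The member was Gins3 in both lists, and its 2 peaks overlapped. In P6D4 the summit lay 26 bases before the start site, with a pileup of 11 tags, a fold of 8.52 and a -log10 q of 10.02 (the authors' values), and it ranked 4823 of the 21629 peaks by -log10 q. In 70Z/3 it lay 79 bases before the start site, with a pileup of 52 tags, a fold of 31.67 and a -log10 q of 74.58, rank 167 of 10462. Both summits fall in the sequence printed for Gins3, on either side of the E2F word. The libraries differ in duplication: of 60841509 tags in P6D4, 2067731 were left after duplicates were removed (redundant rate 0.97). Of 30865119 tags in 70Z/3, 4484034 were left (redundant rate 0.85). The 2 folds therefore cannot be compared, and the P6D4 list rests on the fewer tags. Gins3 RNA was at 34.7, 33.9 and 34.1 CPM in P6D4, against 31.1, 28.8 and 31.1 CPM in 70Z/3 (log2 fold change 0.17 ± 0.05 with its SE; adjusted p in edgeR = 0.00327).

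Related genes outside the list were described by 6 further lists of 100 genes, all of which were tested. P6D4 had the higher level for 35 of them and the lower for 49, and 16 were not called. Over all genes tested, 43.3% were called higher and 43.2% lower, and the counts of each list below stand beside the same shares. The median log2 fold change was -0.08 and the median absolute one 0.34. Beyond 2-fold, 5 were higher and 3 lower, against 16.6% higher and 18.6% lower over all genes tested. Chromosome 15, where the median of all tested genes was 0.90 and 77.6% were called higher, carries 7 of the 100: Dscc1, Mtbp, Rad1, Recql4, Rrm2b, Skp2 and Tonsl. All 7 were higher, 4 of them beyond 2-fold, and the part of the chromosome-wide level in this was not tested. Of 34 other replication factors, 12 were higher and 18 lower. Recql4, a helicase that acts in origin firing, and Dscc1, a subunit of an alternative clamp loader, were higher by 1.49 ± 0.06 and 0.70 ± 0.05 on the log2 scale (SE). Pold4, the smallest subunit of polymerase delta, was at 19.2 CPM in P6D4 against 79.6 CPM in 70Z/3 (log2 fold change -2.05 ± 0.09 with its SE; adjusted p in edgeR = 4.79e-11), and Donson, a factor of helicase assembly, was lower, at a log2 fold change of -0.95 ± 0.05.

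Of 14 genes of chromatin assembly and upkeep at the fork, 4 were higher and 7 lower. Tonsl, which reads new histones behind the fork, was higher by 1.63 ± 0.04 and the histone chaperone gene Nasp by 0.44 ± 0.03. Dnmt1, the maintenance DNA methyltransferase, and the histone chaperone gene Asf1b were lower, with log2 fold changes of -0.97 ± 0.03 and -0.78 ± 0.04.

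Of 15 further genes of deoxynucleotide supply, 3 were higher and 8 lower. Samhd1, a triphosphohydrolase that degrades deoxynucleotides, had 7, 6 and 6 counts in P6D4 and 2865, 2744 and 2594 counts in 70Z/3. It was 483-fold lower in P6D4, with an exact 95% counting interval of 309 to 803. Rrm2b, the p53-induced small reductase subunit, was higher by 1.25 ± 0.08 and Dut, which removes dUTP, by 0.78 ± 0.03, while thymidine kinase Tk1 was lower, at a log2 fold change of -0.52 ± 0.04.

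Among 19 E2F family members, pocket proteins and partners, 7 were higher and 9 lower. E2f6, a repressor of the family, had 4215, 3950 and 3636 counts in P6D4 and 1 count in each 70Z/3 library. The ratio was 3517 in favour of P6D4, with a 95% counting interval of 1203 to 17060. E2f4, another repressor, was higher by 0.95 ± 0.04. Of the other E2F genes, E2f1, E2f2, E2f5 and E2f7 were higher in P6D4, and E2f3 and E2f8 were lower. The pocket protein gene Rbl2 and Foxm1, a factor of mitotic genes, were lower, with log2 fold changes of -0.69 ± 0.06 and -0.78 ± 0.04. In the replication checkpoint 4 genes of 10 were higher and 4 lower. Of the clamp that signals damage at forks, Rad1 was higher by 0.69 ± 0.05 and Hus1 lower, at a log2 fold change of -1.29 ± 0.04. Atrip, the partner of the kinase Atr, was higher by 0.43 ± 0.05 and the kinase gene Chek1 lower, at a log2 fold change of -0.89 ± 0.04. Of 8 S phase cyclins, kinases and ubiquitin ligase parts, 5 were higher and 3 lower. Skp2, which targets CDK inhibitors and Cdt1 for degradation, was higher by 1.32 ± 0.03, and Fzr1, an activator of the anaphase-promoting complex, by 1.01 ± 0.04. The cyclin genes Ccne2 and Ccna2 were lower, with log2 fold changes of -0.49 ± 0.04 and -0.35 ± 0.03.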

How the data were processed

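RNA-Seq (3 libraries per line) and Miz1 ChIP-Seq (1 library per line) were used, and the other ChIP-Seq samples were not. The deposited RNA files hold counts of reads for each Ensembl gene, made with TopHat2 2.0.10 and HTSeq on mm10/GRCm38, per the submitters' processing notes. No source used here gives the strand setting, and overlapping genes can share counts. For each gene count there were 1.10 to 1.14 alignments that were not unique in the P6D4 files, against 1.41 to 1.44 in the 70Z/3 files. HTSeq summary lines were left out; reads outside genes came to 17.0 to 19.1 per 100 gene counts.

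Peaks were called by the authors with MACS 2.0.10.20120913 on 1 library per line (q threshold 0.01), per the file headers. The deposited pileup signal, fold (a ratio over the local background), -log10 p and -log10 q of each peak are theirs.

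Counts were scaled with TMM, filtered with filterByExpr and tested with edgeR 4.0.16 (R 4.3.3; quasi-likelihood test, glmTreat at a log2 fold change of 1, Benjamini-Hochberg over 13750 genes, line as the only term). The SE is the absolute log2 fold change divided by the square root of F. DESeq2 1.42.0 was an alternative. Symbols came from a name table matching 36345 genes, and positions from RefSeq GRCm38.p6. The count test was also run on simulated data. Far fewer genes changed there than were called here, so that run cannot vouch for these calls. Values in every library are given for the 8 called members with the largest rise and the 8 with the largest fall, every member not called and those with a Miz1 peak; from each related list the 2 most raised and 2 most lowered called genes are named. Prkdc, Rpa3, Pole3, Pole4, Pold3, Mcm9, Mtbp and the named myeloid and stromal markers fall outside this rule and were chosen after their values were seen. The same holds for the E2F genes other than E2f4 and E2f6. Members, lists and ratios were chosen with earlier results of these data known. Replicates were not identical (chi-square per degree of freedom 2.46 to 13.8).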

Additional observations from a re-analysis of the deposited data

How the results depend on the processing

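No label pairs the libraries by replicate number. Same-numbered libraries had correlations of -0.16, -0.14 and 0.04 between their deviations from the line means, and differently numbered ones -0.13 to 0.21. With 3 libraries per line the deviations are tied to each other, so these values cannot decide whether libraries were paired. With the replicate block, 18 members were higher and 15 lower, and Mcm4 was the 1 member whose call changed (adjusted p in edgeR = 0.0694). Across the alternatives, 18 to 21 members were higher and 15 to 18 lower. Signs changed for 4 uncalled members. With library size only, Mcm7 was at 0.0083, Cdc7 at 0.0085, Pole at 0.021 and Pcna at 0.023 on the log2 scale. With each library left out in turn, Cdc7 ran from -0.054 to 0.021, Pole from -0.041 to 0.012 and Pcna from -0.028 to 0.016. With library size only, the median log2 fold change over all genes tested was 0.039, against 0.006 in the main fit. The cause of the sign changes was not tested. Calls were gained by Pole2 and Lig1 with DESeq2 size factors, by Orc3, Gins2 and Gins4 with library size only, and by Gins4 without P6D4 replicate 3. Mcm4 lost its call with library size only. With a window of 5000 bases, 2 members had a Miz1 summit in P6D4 and 4 in 70Z/3, and 2 had overlapping peaks in both. That is 4.44% of members in P6D4 and 8.89% in 70Z/3, beside 3.1% of all genes in P6D4 and 5.15% in 70Z/3. A single ChIP library per line gives these peaks no replicate check.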
